A study of Mus musculus with 6 samples.

Results

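The pigment genes of the melanocyte described here are 8 named mouse genes: Tyr, Tyrp1, Dct, Pmel, Mlana, Slc45a2, Oca2 and Mitf. They were found by symbol among the 55487 genes of a table of read counts, and each of the 8 matched 1 row. Poly(A) RNA of back skin, taken whole at day 2 from mice given DPCP (diphencyprone), was sequenced; DPCP is a contact sensitizer that provokes an allergic reaction of the skin. All 6 libraries come from DPCP-treated skin. In 3 of them, with the treatment label DPCP+Codrosome, the mice also received clodrosome, liposomes filled with clodronate that kill phagocytes. In the other 3, with the label DPCP+Encapsome, they received encapsome, the same kind of liposome without clodronate, which served as the control. Letters A, B and C name the libraries of a group in column order and pair nothing between groups. Strain, coat colour, age and sex are not given in the sources used here, and neither is whether each library is a separate animal, so p-values measure the spread between these libraries and may reflect technical spread only.

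Melanocytes make melanin inside melanosomes, organelles related to lysosomes, and hand them to keratinocytes of the hair shaft or epidermis. Tyr, tyrosinase, oxidises tyrosine in the first and rate-limiting step. Dct, dopachrome tautomerase, and Tyrp1, tyrosinase-related protein, act further along the path to brown and black eumelanin. Pmel forms the fibrils on which melanin is laid down, Mlana is a melanosome membrane protein that binds Pmel, and Slc45a2 and Oca2 are membrane transporters that set the conditions in which tyrosinase works. Mitf is the transcription factor that switches on the pigment program; it is also made in mast cells, macrophages and osteoclasts. In mouse back skin pigment production follows the hair cycle and is active while the follicle grows. Loss of skin pigment is a known side effect of contact sensitizers in patients.

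Mitf binds the letters CATGTG, which in pigment gene promoters form the core of a longer element called the M-box. RefSeq promoter windows (GRCm38.p6; the 250 bases before each annotated start) were found for 5 of the 8 genes, Tyr, Tyrp1, Dct, Oca2 and Mitf, and not for Pmel, Mlana and Slc45a2. CATGTG, or CACATG on the other strand, was in a window of 4 of these 5 genes (Mitf was the exception), against 3742 of 27025 mouse genes with such windows. By window, 12.3% of 32851 mouse windows held it; the 5 genes have 7 windows. The whole M-box, which contains CATGTG, was in 7 of the 32851 windows (0.0213%), and Tyr and Tyrp1 were among those 7. The M-box and its core are known from pigment gene promoters, so finding them in pigment genes is not an independent result. The shares of all windows and genes show how common the letters are, and enrichment was not tested. Each match in those 4 genes is shown with its surroundings, 30 bases in all, because CATGTG is the motif they have in common; capitals mark CATGTG, and each site is printed on the strand that reads CATGTG.
Tyr, chr7:87493516-87493545, minus strand: gaaaaagttagtCATGTGctttgcagaaga
Tyrp1, chr4:80834155-80834184, plus strand: tggggagggagtCATGTGctgcctagtagt
Dct, chr14:118052379-118052408, minus strand: tgcacttagggtCATGTGctaacaaagagg
Dct, chr14:118052461-118052490, plus strand: ctttattgggctCATGTGtcccagccaagc
Oca2, chr7:56239561-56239590, minus strand: gaaaattccagcCATGTGtagcaagctcaa
In Tyr the core lies 21 to 16 bases before the RefSeq start and in Tyrp1 46 to 41 bases before it. The deposited table starts Tyrp1 further upstream, at 80834123, so under that annotation its site lies inside the gene. Dct has a nearer site 150 to 145 bases before its start, in the gene's own orientation, and a farther one 232 to 227 bases before it. The nearer Dct site differs from the whole M-box only in the first letter.

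None of the windows of Mitf held CATGTG. RefSeq gives Mitf 3 starts, and the window of the most downstream one, which serves the form made in melanocytes, holds a cAMP response element, the letters through which signals from the melanocortin receptor reach Mitf. It is printed with TGACGTCA in capitals (this motif reads the same on both strands and was in 1.55% of all windows).
Mitf, chr6:97991619-97991648, plus strand: gaaaaaaagcaTGACGTCAagccagcaggg
Counts are summed over the whole gene, so the melanocyte form of Mitf was not measured apart from the others. A match of letters describes the window and does not show that a factor bound there.

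Library totals ranged from 26649396 to 35566351 counts in 5 libraries and reached 116965654 in clodrosome A, and both ends of a read pair were counted, so fragments are about a factor of 2 fewer. Of the 8 genes 7 passed the filter on low counts and were tested; Oca2 did not. Levels are CPM (reads of a gene relative to the library's total), and between genes they are compared as CPM per kilobase of exon. On that scale Mitf averaged 5.42 ± 0.558 and Tyrp1 2.74 ± 0.582 with encapsome (SD, n = 3 each). Dct followed at 2.14 ± 0.307, Pmel at 1.41 ± 0.246 and Mlana at 0.699 ± 0.148 (SD, n = 3 each). Slc45a2 and Tyr were lowest among the tested genes, at 0.270 ± 0.0133 and 0.184 ± 0.0992 (SD, n = 3 each). The library ranges of Tyrp1 and Dct overlapped, as did those of Slc45a2 and Tyr, so the order within these pairs was not resolved. With clodrosome the sequence from Dct down to Mlana was the same, but Mitf (4.72 ± 0.186) and Tyrp1 (4.43 ± 0.491) now overlapped, and so did Dct (2.60 ± 0.410) and Pmel (2.23 ± 0.622; SD, n = 3 each). Tyrosinase was thus the scarcest of the 3 melanin enzymes by this measure in every library of either group.

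**Figure D1:**
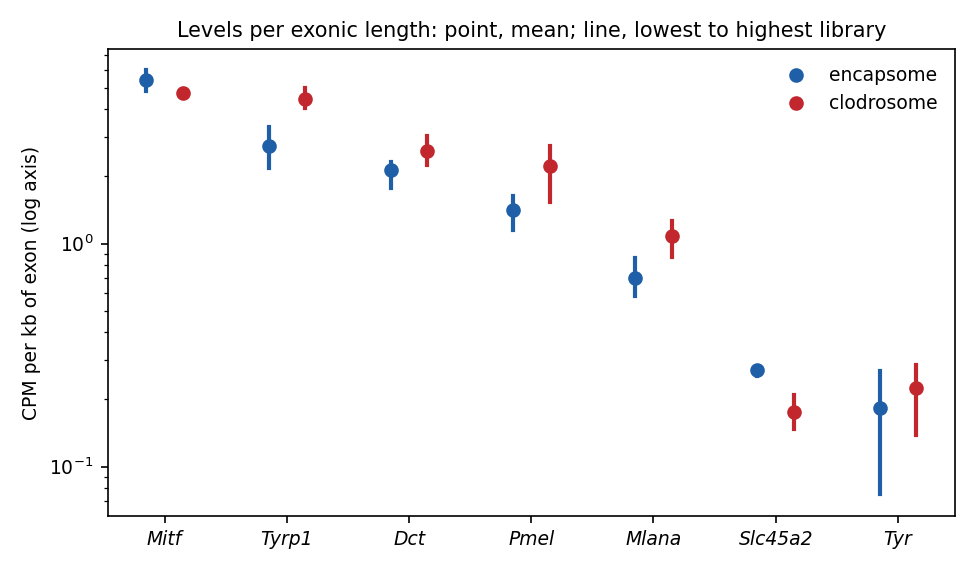
Level of 7 pigment genes in CPM per kilobase of exon (log axis) for encapsome and clodrosome skin; points are means of 3 libraries and lines run from the lowest to the highest library. The ranges of Tyrp1 do not meet, 2.18 to 3.34 with encapsome against 4.06 to 4.99 with clodrosome; Oca2 is left out because 4 of its 6 libraries are at 0.

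The comparison asks how pigment genes stood in skin treated with clodronate liposomes against skin given empty liposomes. One gene of the set, Tyrp1, was higher with clodrosome, 1.61-fold, and no gene was called lower. By edgeR 1 of the 7 tested genes was called at an adjusted p under 0.05, and 6 were not. Among all 17988 tested genes 22.4% were called, 9.41% as higher and 13.0% as lower, so 1 of 7 is near the background. The median log2 fold change of the 7 genes was 0.29, against 0.01 for all genes tested. At an unadjusted edgeR p under 0.05 were 2 of the 7, Tyrp1 and Pmel, against 35.8% of all genes. Values below are CPM with TMM scaling, and a positive log2 fold change means higher with clodrosome. In bulk skin, a difference in the number of melanocytes and a difference in RNA per melanocyte cannot be told apart.

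Of the melanin enzymes Tyrp1 passed the test, and Dct and Tyr did not. Tyrp1 (chromosome 4, 80834123 to 80851719, GRCm38) stood at 11.5, 12 and 14.1 CPM in clodrosome libraries A, B and C and at 7.65, 9.45 and 6.17 CPM in encapsome A, B and C. Every clodrosome library lay above every encapsome library, and the lowest was encapsome C. The log2 fold change was 0.68 ± 0.164 (SE; edgeR adjusted p = 0.0164). The call was lost without clodrosome C (edgeR adjusted p = 0.0618; 14.4% of all genes called), without encapsome A (0.0520; 16.1%) and without encapsome C (0.0557; 14.6%), with the log2 fold change between 0.55 and 0.85 over all 6 omissions. Tyrp1 therefore rose, but on a call that each of 3 libraries decides.

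Dct (chromosome 14, 118012790 to 118052244) had the most enzyme reads, at 18.0, 13.3 and 14.7 CPM with clodrosome and 13.5, 13.7 and 10.5 CPM with encapsome. The groups overlapped, since clodrosome B lay below encapsome A and B. Its log2 fold change was 0.29 ± 0.148 (SE; edgeR adjusted p = 0.199), and the 95% interval of the ratio, not adjusted for the number of genes, ran from 0.969 to 1.54. Tyr (chromosome 7, 87424771 to 87493512) stood at 1.77, 0.987 and 2.02 CPM with clodrosome and 1.49, 1.91 and 0.533 CPM with encapsome. Encapsome C, with 14 counts, was the lowest, and clodrosome B, with 30, was below the other encapsome libraries. The log2 fold change of Tyr was 0.28 ± 0.419 (SE; edgeR adjusted p = 0.677), with an interval of the ratio from 0.633 to 2.34, and it was -0.07 without encapsome C. Tyr and Tyrp1 carry the same M-box in the sequences above; the difference between their responses was not tested.

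Neither structural gene passed the test in the reported fit. Pmel (chromosome 10, 128704195 to 128720238) stood at 5.53, 3.52 and 6.28 CPM with clodrosome and 3.74, 3.32 and 2.63 CPM with encapsome. Clodrosome A and C lay above all encapsome libraries, and clodrosome B lay between encapsome A and B. Its log2 fold change was 0.67 ± 0.234 (SE; edgeR adjusted p = 0.0710), and the unadjusted 95% interval of the ratio was 1.10 to 2.28. Pmel passed with DESeq2 (adjusted p = 0.0329, with 24.9% of all genes called), with no filter on low counts (edgeR adjusted p = 0.00655, with 14.3% called) and without clodrosome B (edgeR adjusted p = 0.0114, with 23.8% called). Exons of Dgka and Cdk2 cover 6.06% of the exonic bases of Pmel, and reads there were left out. Mlana (chromosome 19, 29697824 to 29708634) stood at 1.18, 0.921 and 1.33 CPM with clodrosome and 0.613, 0.689 and 0.914 CPM with encapsome. Clodrosome B and encapsome C nearly met, but no clodrosome library lay below an encapsome library. Its log2 fold change was 0.64 ± 0.287 (SE; edgeR adjusted p = 0.141), on counts of only 19 to 28 in 4 of the libraries.

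**Figure D2:**
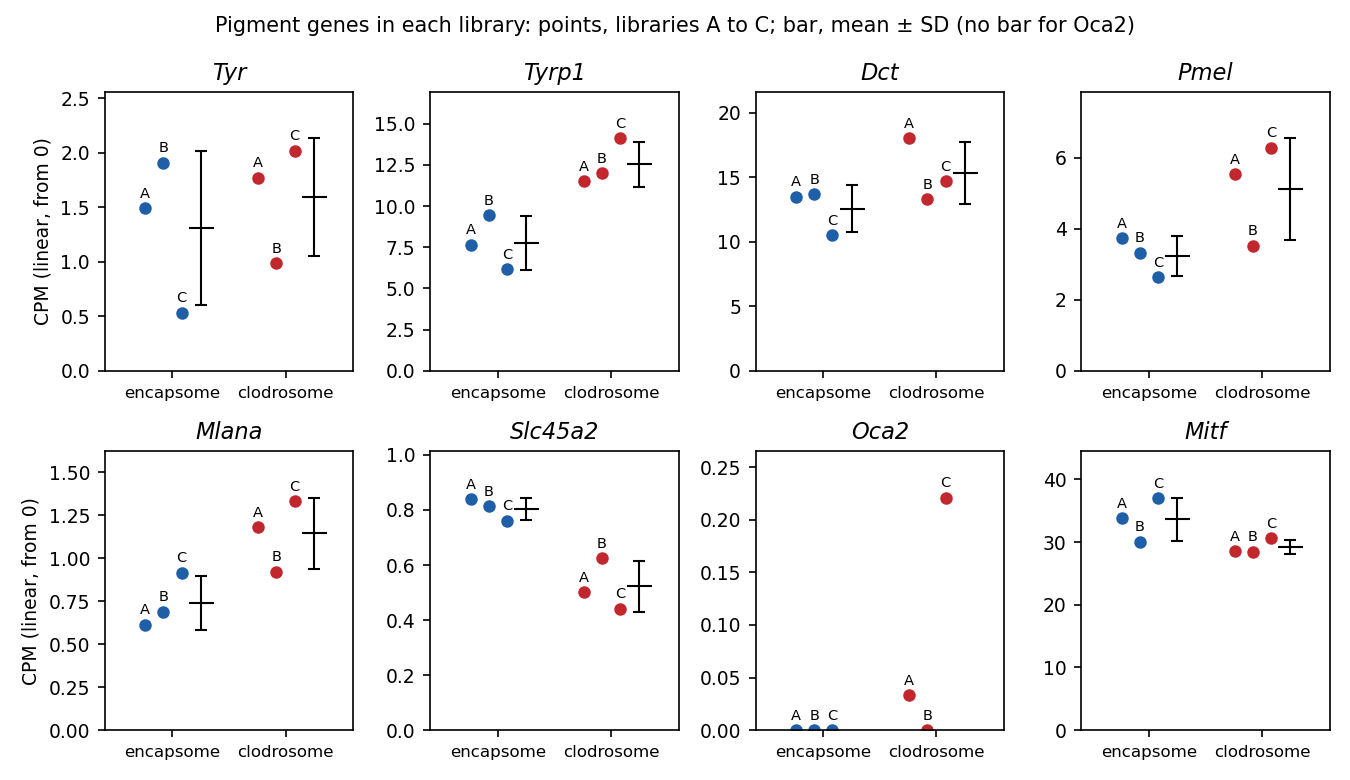
Level of each pigment gene in every library (CPM, linear axes from 0); points are libraries A to C of each group, and the bar beside them is the mean ± SD of 3 libraries, left out for Oca2. Tyrp1 and Mlana lie higher in all clodrosome libraries than in any encapsome library, Slc45a2 lies lower, and the other genes overlap.

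Neither transporter was called. Slc45a2 (chromosome 15, 11000721 to 11029233) stood at 0.502, 0.625 and 0.442 CPM with clodrosome and 0.839, 0.814 and 0.761 CPM with encapsome, lower in every clodrosome library. The log2 fold change was -0.63 ± 0.298 (SE; edgeR adjusted p = 0.161), and no setting tried gave an adjusted p below 0.141. Groups that do not overlap were common in these data: 40.2% of all tested genes had them (19.5% with clodrosome above and 20.7% below), and so did 3 of the 7 tested pigment genes (Tyrp1, Mlana and Slc45a2). Oca2 (chromosome 7, 56239760 to 56536518) had 4, 0 and 8 counts in clodrosome A, B and C and 0 counts in each encapsome library. A count of 0 allows up to 0.194, 0.188 and 0.228 CPM in encapsome A, B and C (6 counts or 3 fragments, counting error only). The 8 counts of clodrosome C amount to 0.221 CPM, within the limit of encapsome C only. Clodrosome A and B, at 0.0335 and 0 CPM, lie below every limit. Oca2 was not tested, and a difference in it could not be established at this depth.

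Mitf had the most counts of the set and was not called. It stood at 28.6, 28.5 and 30.6 CPM with clodrosome and 33.8, 30.1 and 37.0 CPM with encapsome (chromosome 6, 97807052 to 98021349). Clodrosome C lay just above encapsome B, and the other values were separated. The log2 fold change was -0.20 ± 0.0915 (SE; edgeR adjusted p = 0.15), with an unadjusted 95% interval of the ratio from 0.754 to 1. Set against Mitf in the same library, where no scaling enters, Tyrp1 had 40.1, 42.1 and 46.2 counts per 100 Mitf counts with clodrosome and 22.7, 31.5 and 16.7 with encapsome. Pmel had 19.3, 12.4 and 20.5 against 11.1, 11 and 7.11 counts per 100 Mitf counts, and neither ratio overlapped between groups. Such separation was common, at 40.2% of single tested genes, and its share among ratios was not computed. Pmel on its own overlapped between groups, and neither Pmel nor Mitf was called. Set against Dct, the ranges of Tyrp1, Pmel and Tyr all overlapped; Tyrp1 had 63.8, 90.6 and 95.7 counts per 100 Dct counts with clodrosome and 56.6, 68.8 and 58.7 with encapsome. Marker RNA of other cells that make Mitf differed between the groups. All 6 mast cell markers and all 8 macrophage markers measured were lower with clodrosome, against 13.0% of all tested genes. Cell numbers were not measured. The part of these cells in the Mitf value was not tested.

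**Figure D3:**
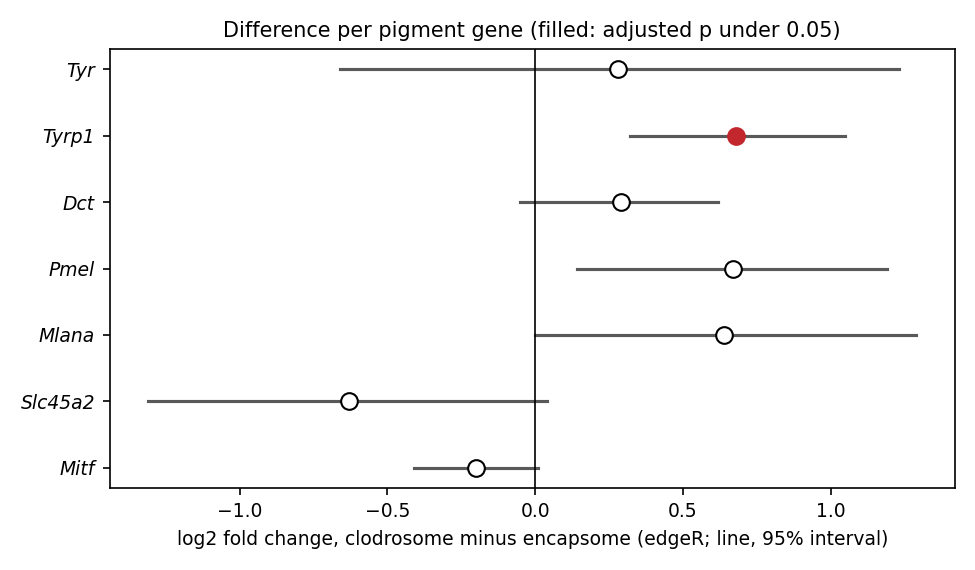
Log2 fold change of the 7 tested pigment genes, clodrosome minus encapsome, with the 95% interval of the edgeR fit (horizontal line, not adjusted for the number of genes); a filled point passed an adjusted p of 0.05. Tyrp1 at 0.68 is the filled point, Pmel at 0.67 and Mlana at 0.64 lie beside it, and Slc45a2 at -0.63 lies on the other side of 0.

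The spread among libraries had a pattern of its own. Clodrosome B was the lowest clodrosome library for Tyr, Dct, Pmel, Mlana, Mitf and Oca2, and encapsome C was the lowest encapsome library for Tyr, Tyrp1, Dct, Pmel and Slc45a2. Clodrosome B and encapsome C also had high shares of counts in rRNA genes, 0.796% and 0.788%, but so did encapsome B at 0.845%, while the other libraries had 0.334% to 0.481%. The labels name no batch, and the part of RNA quality in the pigment values was not tested. Summed over the 8 genes, the level was 59.8 to 69.7 CPM with clodrosome and 58.5 to 61.6 CPM with encapsome, ranges that overlap, with Mitf the largest share.

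**Figure D4:**
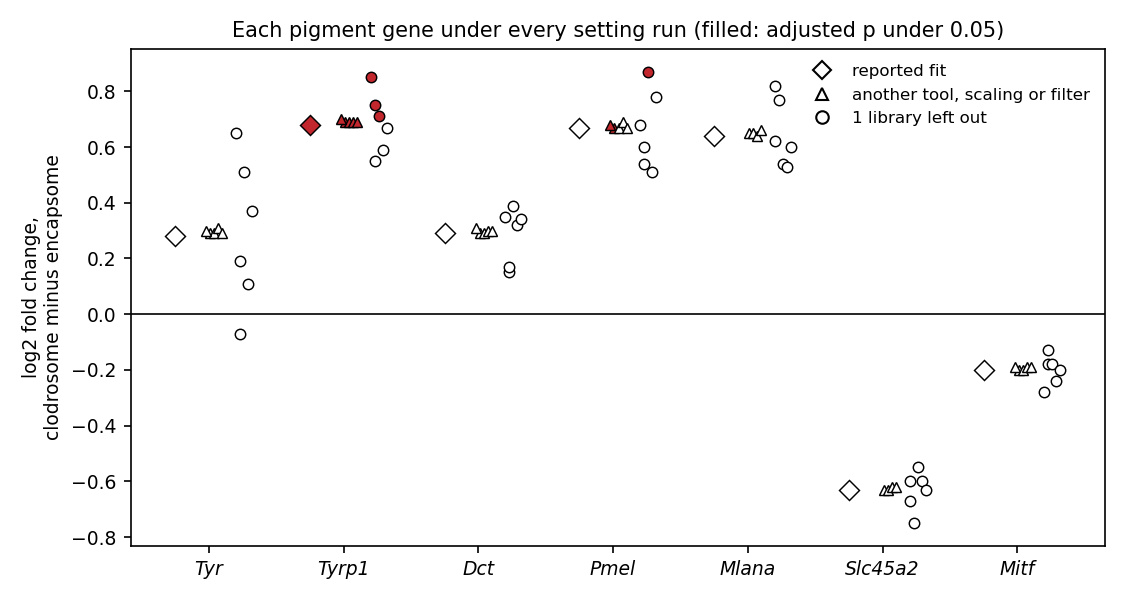
Log2 fold change of each tested pigment gene in the reported edgeR fit (diamond), with another tool, scaling or filter (triangles) and with 1 library left out (circles); filled symbols passed an adjusted p of 0.05. Tyr spans -0.07 to 0.65 and Tyrp1 0.55 to 0.85, and Slc45a2 and Mitf stay below 0 in every setting run.

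Genes that act upstream of pigment production came next. Among 8 regulators of the melanocyte lineage 1 was higher and 1 lower, with a median log2 fold change of 0.04. With no filter on low counts 2 were lower, where 14.3% of all genes were called either way. Over all tested genes 22.4% were called, 9.41% as higher and 13.0% as lower, so the number called here is near the background. Sox10, which acts with Pax3 to switch on Mitf and is shared with Schwann cells, was at 3.90 ± 0.577 CPM with clodrosome and 3.46 ± 0.567 CPM with encapsome (n = 3 each, SD; log2 fold change 0.16; edgeR adjusted p = 0.603). Pax3 was at 0.951 ± 0.141 and 1.11 ± 0.346 CPM (SD, n = 3 each; edgeR adjusted p = 0.705). Neither lineage factor passed the test, and their library ranges overlapped. Zeb2, a repressor used in melanocyte differentiation and also in macrophages, dropped by 0.70 log2 units (edgeR adjusted p = 0.00140), and Tfap2b, an AP-2 transcription factor, rose by 0.47 (edgeR adjusted p = 0.00490).

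Of 13 ligands and receptors that act on pigment cells, 12 were tested, 4 were lower, 1 was higher and 7 did not pass, with a median log2 fold change of -0.27. The shares over all tested genes were 13.0% lower and 9.41% higher. Without encapsome B or without encapsome C 2 were lower, and without clodrosome B 2 were higher. Of all genes, 14.6% were called either way without encapsome C and 23.8% without clodrosome B, against 22.4% with all libraries. Edn3, the endothelin that supports melanoblasts, stood at 0.418, 0.132 and 0.387 CPM with clodrosome and 0.775, 1.41 and 1.14 CPM with encapsome. All clodrosome values were lower, on counts of 4 to 50 per library. Its log2 fold change was -1.72 ± 0.419 (SE; edgeR adjusted p = 0.0179; 0.0844 and 0.0556 without encapsome B and C). Ednrb, the receptor for it, which endothelial cells also make, stood at 70.1, 33.2 and 54.6 CPM with clodrosome against 124, 126 and 114 CPM (log2 fold change -1.20 ± 0.215, SE; edgeR adjusted p = 0.00428). Edn1, an endothelin made by keratinocytes and endothelium that stimulates melanocytes through the same receptor, went the other way. It was at 17.2, 20.9 and 20.1 CPM with clodrosome against 5.94, 7.73 and 8.64 CPM (log2 fold change 1.38 ± 0.15, SE; edgeR adjusted p = 3.37e-04). Edn1 was thus higher, and Edn3 and Ednrb were lower.

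Asip, agouti, the antagonist of the melanocortin receptor that turns pigment yellow, stood at 0.736, 0.132 and 0.691 CPM with clodrosome against 1.39, 1.75 and 1.48 CPM with encapsome. Every clodrosome library was lower, with 4 counts in clodrosome B (log2 fold change -1.46 ± 0.443, SE; edgeR adjusted p = 0.0425). The call was lost without clodrosome C (edgeR adjusted p = 0.0770) and without encapsome A (0.0778), B (0.134) or C (0.0955). Exons of Raly cover 12.6% of its exonic bases. Mc1r, the melanocortin receptor itself, had 2 to 14 counts per library and did not pass the filter on low counts. Hgf, a melanocyte mitogen made in the dermis, averaged 10.3 ± 2.38 CPM with clodrosome and 46.6 ± 7.56 CPM with encapsome (n = 3 each, SD); its log2 fold change by edgeR was -2.17 (adjusted p = 1.06e-04). Kit, the receptor of melanocytes and mast cells, averaged 13.7 ± 2.60 CPM with clodrosome and 13.5 ± 1.13 CPM with encapsome (n = 3 each, SD; log2 fold change 0.02; edgeR adjusted p = 0.936). Kitl, its ligand, had a log2 fold change of -0.22 (edgeR adjusted p = 0.0885; 0.0383 without encapsome A).

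Other melanosome proteins were tested in 8 of 10 cases, of which 3 were lower and 1 higher, with a median log2 fold change of -0.26. Beside these counts, 13.0% of all tested genes were lower and 9.41% higher. Gpnmb, a relative of Pmel that macrophages also make in large amounts, fell from 1748, 655 and 1234 CPM in encapsome A, B and C to 61.4, 34.8 and 56.9 CPM in clodrosome A, B and C. Its log2 fold change of -4.56 ± 0.367 (standard error; edgeR adjusted p = 1.04e-04) stands beside 0.67 for Pmel. Mfsd12, which imports cysteine into lysosomes and melanosomes, stood at 7.36, 7.86 and 8.96 CPM with clodrosome against 48.9, 27.1 and 37.6 CPM with encapsome (log2 fold change -2.24; edgeR adjusted p = 1.35e-04). Exons of other genes cover 29.8% of its exonic bases. Tpcn2, a cation channel of lysosomes and melanosomes, dropped by 0.51 log2 units (edgeR adjusted p = 0.0224; 0.0704 and 0.0790 without encapsome A and C). Slc7a11, the cystine transporter that feeds yellow pheomelanin and the defence against oxidants, rose by 0.80 (edgeR adjusted p = 0.00115). Slc24a5, a melanosome cation exchanger, had 4 to 82 counts and did not pass (edgeR adjusted p = 0.465). Exons of Myef2 cover 39.5% of the exonic bases of Slc24a5. Gpr143, a receptor confined to pigment cells, had 12, 2 and 2 counts with clodrosome and 0 in each encapsome library and was not tested. Its clodrosome values, 0.1, 0.0658 and 0.0553 CPM, lie below the 0.188 to 0.228 CPM that a count of 0 allows with encapsome. No difference in Gpr143 was therefore detectable at this depth.

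Of 20 genes of melanosome biogenesis, whose products also serve lysosomes in other cells, 4 were lower, 1 was higher and 15 did not pass, with a median log2 fold change of -0.17. Among all tested genes 22.4% were called, 13.0% as lower and 9.41% as higher, so the number called in this list is near the background. Dtnbp1, dysbindin of the BLOC-1 complex, dropped by 0.62 log2 units (edgeR adjusted p = 7.69e-04) and Hps3 of the BLOC-2 complex by 0.37 (edgeR adjusted p = 0.00993; 0.0504 without clodrosome C). Snapin, a BLOC-1 partner with 15.5% of its exonic bases covered by exons of Ilf2, fell by 0.26 (edgeR adjusted p = 0.0289). Its log2 fold change stayed between -0.31 and -0.23 on leaving out each library, but the call was lost without clodrosome A or C or encapsome A or C (edgeR adjusted p then 0.0652 to 0.112) and with no filter on low counts (0.0656). Vps33a, named after its value was seen, fell by 0.31 (edgeR adjusted p = 0.0489). Its log2 fold change stayed between -0.38 and -0.21, but the call was lost on leaving out any library except clodrosome A (edgeR adjusted p then 0.0666 to 0.14), with RLE scaling (0.0556), with halved counts (0.0596) and with the filter at a mean of 1 CPM (0.0604). Rab38, a GTPase that carries Tyr and Tyrp1 to the melanosome, rose by 0.39 (edgeR adjusted p = 0.0363), a call lost without clodrosome C and without each encapsome library (edgeR adjusted p from 0.0579 to 0.119). The counts changed with the libraries kept. Without clodrosome C 1 gene was lower and 0 were higher, without encapsome A or C 2 were lower and 0 higher. Without encapsome B 0 were higher. Fewer of all genes were called as well: 14.4% without clodrosome C, 16.1% without encapsome A and 14.6% without encapsome C, against 22.4%. The share without encapsome B is not given here. Of 5 genes of melanosome movement and transfer, Myo5a, the myosin that holds melanosomes at the cell edge, had a log2 fold change of -1.20 (edgeR adjusted p = 3.76e-04). F2rl1, a keratinocyte receptor that promotes uptake of melanosomes, rose by 0.46 (edgeR adjusted p = 0.00384). The other 3 genes of the list did not pass.

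**Figure D5:**
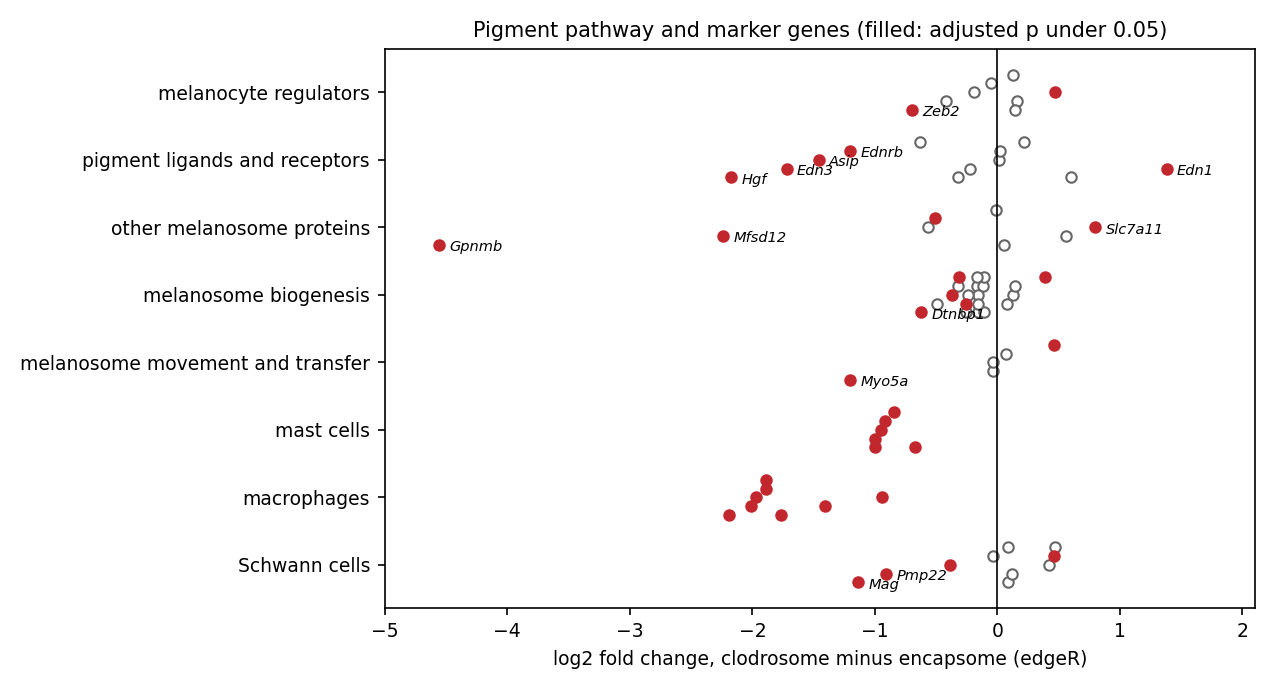
Log2 fold change (clodrosome minus encapsome) of the tested genes of 5 pigment pathway lists and of the markers of mast cells, macrophages and Schwann cells; each point is a gene, and filled points passed an edgeR adjusted p of 0.05. The 8 macrophage and 6 mast cell markers all lie below 0, Gpnmb lies at -4.56, and Edn1 lies at 1.38.

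Several of these genes are shared with cells whose marker RNA also differed between the groups. For the list counts in this paragraph, the background is 13.0% of all tested genes called lower and 9.41% called higher. The 8 macrophage markers were all lower, with a summed level of 646 to 1602 CPM with clodrosome and 3659 to 4391 CPM with encapsome. Adgre1, encoding F4/80, and Mrc1, the mannose receptor, changed by -1.41 and -1.97 (edgeR adjusted p = 8.58e-04 and 0.00166). Gpnmb, Mfsd12, Tpcn2, Zeb2 and Myo5a moved in the same direction as the macrophage markers, and the part of macrophages in those values was not tested. The 6 mast cell markers were also all lower, with a summed level of 185 to 256 against 384 to 460 CPM and Kit, which mast cells share, was not called. Of 10 Schwann cell markers, which share Sox10 with melanocytes, 3 were lower and 1 higher, with a median of 0.09. The higher one, Prx, was not called without clodrosome A or C or encapsome A or C (edgeR adjusted p then 0.0576 to 0.113). The number higher was 2 with DESeq2 and without encapsome B, and 3 with no filter on low counts. Of all genes, 24.9% were called either way with DESeq2 and 14.3% with no filter. Pmp22, which fibroblasts also make, and Mag fell by 0.91 and 1.14 (edgeR adjusted p = 5.31e-04 and 0.00725).

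The hair follicle offers the setting in which these pigment genes are normally switched on. Of 19 genes of the growing hair matrix and shaft 18 were matched and 7 passed the filter. Under 6 counts were found in every library for 7 of them, and the hair keratins Krt25, Krt33a and Krt34 had 0 counts in all 6 libraries. The list's summed level was 38.0 to 40.1 CPM with clodrosome and 32.7 to 36.3 CPM with encapsome. No matched keratin of the list averaged above 0.456 CPM in either group, so this sum came mostly from its other genes. In every clodrosome library 2 genes of the list lay above all encapsome libraries and 2 lay below them. Over all tested genes 19.5% lay above in this way and 20.7% below. Of the tested genes of the list, 6 were not called. Its 1 higher gene was Hoxc13, a transcription factor of hair differentiation, at a log2 fold change of 0.65 (edgeR adjusted p = 0.0180). It was not called on leaving out clodrosome A or C or encapsome A or C (edgeR adjusted p then 0.0581 to 0.0695). Follicle stem cell genes, the neighbours of melanocyte stem cells, were higher in 7 of 10 cases, among them Lhx2 at 1.14 and Sox9 at 0.71 (edgeR adjusted p = 1.86e-04 and 9.23e-04). Krt15, named after its value was seen, passed narrowly (edgeR adjusted p = 0.0495). Its groups overlapped, at 229, 617 and 318 CPM with clodrosome against 234, 178 and 190 CPM with encapsome. Basal keratinocyte genes were higher in 4 of 7 cases, with Trp63 at 0.53 (edgeR adjusted p = 8.39e-04). As background to the counts of called genes in this paragraph, 9.41% of all tested genes were called higher and 13.0% lower. Tyrp1 thus moved in the same direction as markers of the follicle stem cells and basal layer, and the part of these cells in its value was not tested. Of 9 tested dermal papilla genes 3 were lower, and 1 without encapsome B. Of 9 genes of cytotoxic T cells and interferon gamma 1 was lower, 0 without encapsome B or C, and 2 without clodrosome B. None was higher, but 1 was without clodrosome C and 2 with no filter on low counts. Of all genes, 14.6% were called either way without encapsome C, 23.8% without clodrosome B and 14.4% without clodrosome C. With no filter the share was 14.3%, and that without encapsome B is not given here.

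The 8 genes whose profile over the 6 libraries was most like that of the pigment genes were in none of the melanocyte lists. Only tested genes that averaged at least 1 CPM and had no clone name were searched. Low genes of those lists, such as Slc24a5 and Gpr143, could therefore not appear. The mean profile joins genes with log2 fold changes of both signs, from -0.63 for Slc45a2 to 0.68 for Tyrp1. Likeness was the Pearson correlation with the mean standardised log2 CPM of the 7 tested genes, and the 8 closest genes had r from 0.984 to 0.995 over 6 libraries, which share the grouping. In order they were Dop1a, Uso1, Kctd11, Rasl11b, Traf3ip2, Qtrt2, Ints3 and Ankzf1. Their log2 fold changes ran from 0.05 for Uso1 to 0.65 for Rasl11b, and none was called by edgeR (adjusted p from 0.0968 to 0.647). The mean profile was highest in clodrosome C (0.49) and A (0.39) and lowest in encapsome C (-0.54), with clodrosome B (-0.22) below encapsome A and B (-0.06 each).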

How the data were processed

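Per the file headers, featureCounts 1.6.2 and the Ensembl 102 annotation of GRCm38 gave the deposited counts, which are raw; exonic length is a column of the same file. Trimmomatic 0.36, HISAT2 2.2.1, StringTie 2.2.1 and DESeq2 1.34.0 are named in the submitters' processing notes, with mm10. The kit keeps strand, per the labels' protocols. The header sets no option for pairs or strand, and 63.6% to 69.7% of counts from 1 to 20 were even, so both ends of a fragment were counted, strand was ignored, and reads shared by genes were left out. Low pigment counts therefore rest on about a factor of 2 fewer fragments.

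The 6 count columns were matched to groups by name, with 0 further sample columns; their names carry other numbers than the titles' replicates. Libraries of a group differed beyond sampling noise (chi-square per gene 9.93 to 53.0). Symbols came from a gene name table (99.4% of identifiers matched), with agouti under its older symbol; Krt85 was not matched. Genes were tested with edgeR 4.0.16 (R 4.3.3): filterByExpr with a minimum count of 10 and total of 15, TMM, glmQLFit and glmQLFTest with group as the only term, and Benjamini-Hochberg adjustment over 17988 genes at 0.05. Standard errors were derived from the fold change and the F statistic. The procedure was tested on simulated data. Alternatives were DESeq2 1.42.0, RLE scaling, other filters, halved counts and leaving out each library.

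The members, gene lists and tests were chosen with earlier results of these data known. Named are the 8 members, up to 4 called genes of smallest p per list, and 15 fixed reference genes, of which some are not reported here; others are marked. No list was tested as a set.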

Additional observations from a re-analysis of the deposited data

How the results depend on the processing

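Tyrp1 was called higher with every other tool, scaling and filter run. With 1 library left out, its log2 fold change was 0.55 to 0.85 and its adjusted p 0.0124 to 0.0618. Pmel (0.51 to 0.87 with 1 library left out) passed with DESeq2 at 0.67 and with no filter on low counts at 0.68. So 2 pigment genes were higher in those settings, where 24.9% (DESeq2) and 14.3% (no filter) of all genes were called either way. With 1 library left out 0 to 2 were higher. In the omissions that changed the call of a pigment gene, 14.4% to 23.8% of all genes were called. The range for Tyr over the omissions was -0.07 to 0.65. The cause of these changes was not tested. No pigment gene was called lower in any setting; 0 was also the count by DESeq2, and at an unadjusted edgeR p under 0.05 none was lower. A stricter filter removed Mlana and Slc45a2. Kit changed sign without clodrosome A (-0.12) and encapsome A (-0.04), within -0.12 to 0.16 over the libraries left out. Depth is low for Mlana, Slc45a2 and Oca2, with 28 counts or fewer in at least 4 of the 6 libraries; Tyr had 14 to 212. No paired analysis was possible because the columns carry no replicate number of the titles. Counting error only is covered by the limits given for counts of 0.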
